A study of Mus musculus with 12 samples.

Results

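The open chromatin of 2 cell populations from FoxA2 helix mutant embryos was compared: cells with the most tagged FoxA2 (dHx High, 36070 autosomal peaks) and cells without it (dHx Negative, 48244 peaks). These 84314 peaks were taken out of the 249098 peaks of the 6 lists of the series. Lines with the same coordinates were merged, the 19 autosomes were kept, and a peak was called shared when it overlapped a peak of the other list by at least 1 bp. All cells came from mouse embryos at embryonic day 7.5 that were homozygous for FoxA2-deltaHx-tagRFP, a FoxA2 allele that lacks 10 residues of an alpha helix and is fused to the fluorescent protein tagRFP. The mutation was therefore present in dHx Negative cells too. Per the labels' protocols, the mice were of a mixed C57Bl6/J x CD-1 background, male and female embryos were mixed, the extraembryonic part was removed, and about 10 embryos were pooled for a sort. The High gate lay above the signal of heterozygous cells and the Negative gate held cells without tagRFP signal. Each library was made from 2000 to 5000 cells. The other 4 lists used for comparison are dHx Middle, with tagRFP up to the signal of heterozygous cells, and WT High, WT Middle and WT Negative, from embryos with the tagged allele and an intact helix. Each group had 2 samples, which were deposited as 1 pooled peak list, so there is 1 value per group, no replicate spread and no test of any difference. The labels name no cell type for either gate.

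FoxA2, a forkhead protein needed for node, notochord and endoderm, is a pioneer factor that can bind its sites in closed chromatin. ATAC-seq marks open chromatin by the insertion of adapters by a transposase, and a peak is a stretch with more insertions than the local background. Cells without FoxA2 at this stage include those of the epiblast, the primitive streak and the mesoderm. In a mixed population, a peak missing from a list cannot be told apart from a peak present in few of its cells.

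The promoters below show the sequence where a strong peak was found in 1 of the dHx lists and not in the other. They are the 250 bases before the transcription start in RefSeq (GRCm38.p6, the assembly that mm10 names), read in the direction of transcription. Capitals mark exact matches, on either strand, to 5 motifs: the forkhead motifs TGTTTAC and TGTTTGC, the GATA motif AGATAA, the SOX motif ACAATG and the TEAD motif GGAATG. Foxa1 (chr12:57546112-57546361, minus strand) and Krt18 (chr15:102027966-102028215, plus strand) had the peak in dHx High. The Foxa1 peak, with a score of 6.02, stood at the limit for a strong peak as defined below. Outside the window it also met a WT Negative peak. Zic1 (chr9:91365769-91366018, minus strand) and Flt4 (chr11:49609429-49609678, plus strand) had it in dHx Negative. Counted by gene, Flt4 had a peak within 1 kb of a start in each of these lists. All 3 dHx High peaks assigned to Flt4 were absent from dHx Negative.
Foxa1: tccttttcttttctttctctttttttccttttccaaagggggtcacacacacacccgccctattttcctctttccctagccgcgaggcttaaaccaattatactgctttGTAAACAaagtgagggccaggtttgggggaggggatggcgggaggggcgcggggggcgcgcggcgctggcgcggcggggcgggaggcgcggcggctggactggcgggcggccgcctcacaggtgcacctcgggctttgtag
Krt18: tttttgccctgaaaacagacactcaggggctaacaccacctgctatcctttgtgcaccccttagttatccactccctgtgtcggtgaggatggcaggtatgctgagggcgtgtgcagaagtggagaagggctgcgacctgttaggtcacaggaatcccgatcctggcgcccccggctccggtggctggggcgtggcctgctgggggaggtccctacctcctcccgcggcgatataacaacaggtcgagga
Zic1: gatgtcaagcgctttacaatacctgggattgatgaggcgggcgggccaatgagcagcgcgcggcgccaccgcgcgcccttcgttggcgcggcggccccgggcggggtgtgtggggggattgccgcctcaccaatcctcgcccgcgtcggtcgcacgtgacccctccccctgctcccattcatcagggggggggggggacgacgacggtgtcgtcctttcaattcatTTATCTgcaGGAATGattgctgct
Flt4: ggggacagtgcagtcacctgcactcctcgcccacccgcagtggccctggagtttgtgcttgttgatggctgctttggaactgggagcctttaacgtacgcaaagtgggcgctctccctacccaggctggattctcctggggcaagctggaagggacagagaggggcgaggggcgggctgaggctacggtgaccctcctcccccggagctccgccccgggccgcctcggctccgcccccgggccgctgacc
Foxa1, which encodes a second forkhead factor of the endoderm, holds 1 forkhead match, with its first base at position -141 from the start. The Zic1 promoter, of a zinc finger factor of the neural plate, holds a GATA and a TEAD match. Krt18, a keratin of simple epithelia, and Flt4, a VEGF receptor of endothelium, hold none of the 5 motifs in these bases. The Foxa1 window met a peak in the 4 lists with tagRFP signal, the Krt18 window in dHx High, dHx Middle and WT High, the Zic1 window in dHx Negative and WT Negative, and the Flt4 window in every list except dHx High. GC content was 62% in Foxa1, 60.4% in Krt18, 66% in Zic1 and 68.4% in Flt4.

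Much of each list was found in that list alone: 14076 of 36070 peaks (39.0%, 38.5 to 39.5) in dHx High and 25935 of 48244 (53.8%, 53.3 to 54.2) in dHx Negative. These and the later intervals are Clopper-Pearson 95% intervals, which cover counting error only. The peaks found in 1 list alone made up less of the open sequence than of the peaks. They covered 5.57 Mb of 20.5 Mb (27.2%) in dHx High and 11.7 Mb of 26.7 Mb (43.9%) in dHx Negative. The lists differed in the fitted Poisson background, used in place of read depth, which is unknown. Fitted to the steps of the authors' scores, the background was 0.476 in dHx High (0.448 to 0.503) and 1.57 in dHx Negative (1.49 to 1.64), in mean pileup per base, with the range given by a lowest pileup 1 step lower or higher. In WT the list with the lower background was the longer one: WT High had 0.879 and 44195 peaks, against 1.08 and 38439 peaks in WT Negative. The part of the background in the shares was not tested.

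The strongest peaks were compared separately, by looking up the 20000 peaks with the highest score of each list in the whole other list. These are called strong below. The score is the authors' own, a p- or q-value as its −log10 as far as its values show, and ranks peaks within a list only. Absent from dHx Negative were 4586 strong dHx High peaks (22.9%, 22.3 to 23.5), called High-only here. Absent from dHx High were 5820 strong dHx Negative peaks (29.1%, 28.5 to 29.7), called Negative-only. In WT embryos the order of the same shares was the other way round, at 28.6% (28.0 to 29.2) of the strong WT High peaks and 23.3% (22.7 to 23.9) of the strong WT Negative peaks. In both genotypes the longer list of the pair had the larger share.

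The share depended on rank in both lists. Of the 2000 highest-scoring peaks, 51 in dHx High (2.55%, 1.90 to 3.34) and 164 in dHx Negative (8.20%, 7.03 to 9.49) were found in 1 list alone. For ranks 18001 to 20000 the shares were 42.7% in dHx High and 52.9% in dHx Negative. Below rank 20000 they were 59.1% (58.3 to 59.8) in dHx High and 71.2% (70.7 to 71.7) in dHx Negative. The plot of the share by rank shows the dHx Negative line above the dHx High line for every bin of 2000 peaks down to rank 32000.

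**Figure D1:**
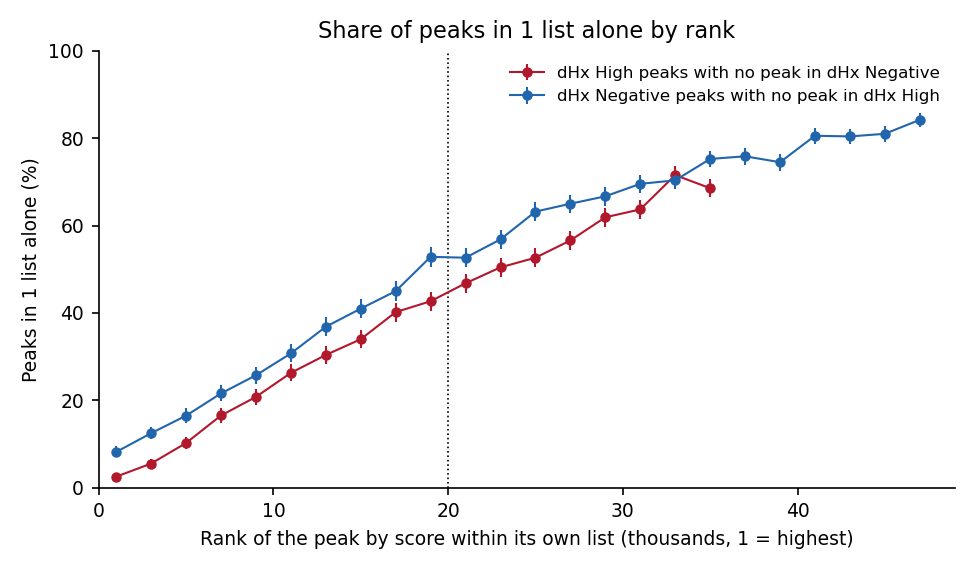
Share of peaks in 1 dHx list alone (vertical axis, %) in bins of 2000 peaks ranked by score within their own list (horizontal axis), for dHx High (red) and dHx Negative (blue); bars are Clopper-Pearson 95% intervals and the dotted line marks rank 20000. The first bins stand at 2.55% in dHx High and 8.20% in dHx Negative, and both lines climb with rank.

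Strong High-only peaks were found again mostly in lists with tagRFP signal. Of the 4586, 55.9% had a peak in dHx Middle, 69.3% (67.9 to 70.6) in WT High, 51.9% in WT Middle and 17.9% (16.8 to 19) in WT Negative. The strong Negative-only peaks had the opposite order in WT. Of the 5820, 37.3% had a peak in dHx Middle, 43.0% (41.7 to 44.3) in WT High, 53.0% in WT Middle and 62.1% (60.8 to 63.3) in WT Negative. Strong dHx High peaks shared with dHx Negative gave the level for regions open at both ends of the sort, with 92.0% in WT High and 87.3% in WT Negative.

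**Figure D2:**
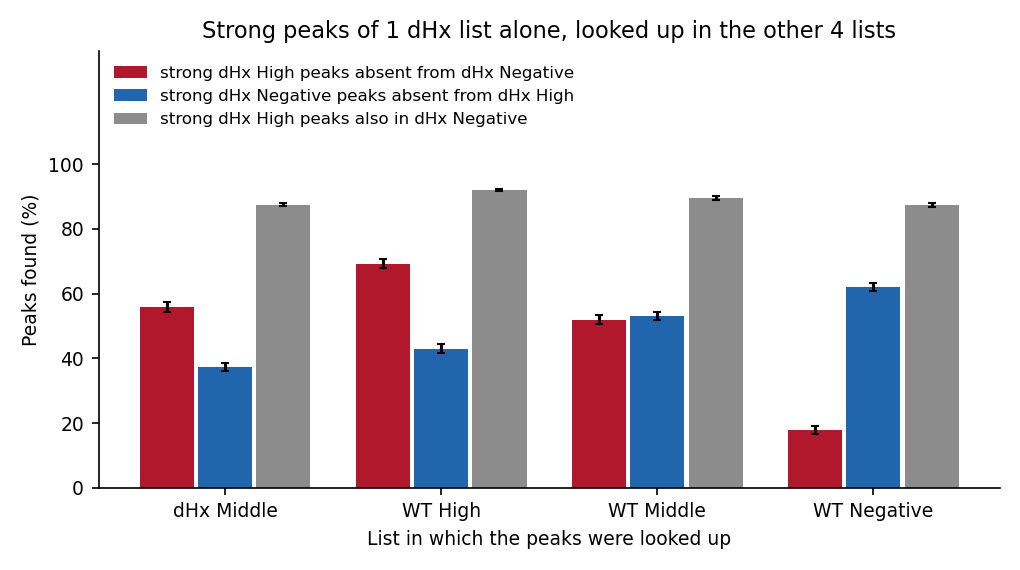
Percent of strong peaks (vertical axis) found in each of the 4 lists that did not define the classes (horizontal axis), for peaks in dHx High alone (red), in dHx Negative alone (blue) and shared (grey); bars carry Clopper-Pearson 95% intervals. Red stands at 69.3% in WT High and 17.9% in WT Negative, and blue at 43.0% in WT High and 62.1% in WT Negative.

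Looked up in both WT ends of the sort, 2591 strong High-only peaks (56.5%, 55.0 to 57.9) were in WT High and not in WT Negative. In the reverse class, 233 (5.08%) were in WT Negative and not in WT High, 586 (12.8%) were in both and 1176 (25.6%) in neither. Of the strong Negative-only peaks, 1716 (29.5%, 28.3 to 30.7) were in WT Negative and not in WT High, 608 (10.4%) in WT High and not in WT Negative, 1896 (32.6%) in both and 1600 (27.5%) in neither. The share that kept its sign in WT was thus larger for High-only than for Negative-only peaks. The WT lists were unequal, however. Of 44195 WT High peaks 48.8% were absent from WT Negative, and of 38439 WT Negative peaks 41.0% were absent from WT High. The part of this in the shares was not tested. Among the Negative-only peaks 915 (15.7%) were in all of the other 4 lists, against 332 of the High-only peaks (7.24%). These Negative-only regions were absent from dHx High alone, the list with the lowest fitted background of the 6. Whether the background has a part in their absence was not tested. In none of the other 4 lists were 724 High-only peaks (15.8%) and 949 Negative-only peaks (16.3%).

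Peaks in 1 list alone lay away from promoters. Within 1 kb of a transcription start were 583 of the strong High-only peaks (12.7%, 11.8 to 13.7) and 421 of the strong Negative-only peaks (7.23%, 6.58 to 7.93). Among strong shared peaks the share was 49.5% in dHx High and 48.8% in dHx Negative. High-only peaks lay inside genes in 47.0% of cases and outside genes but within 100 kb in 29.0%. For Negative-only peaks these shares were 42.5% and 36.6%. Farther than 100 kb from any protein-coding gene were 519 High-only peaks (11.3%) and 797 Negative-only peaks (13.7%). Read the other way, 7.10% (6.55 to 7.68) of the strong dHx High peaks near a start were High-only, and 43.4% (40.5 to 46.2) of those over 100 kb from a gene. In dHx Negative 5.74% (5.22 to 6.30) of the strong peaks near a start were Negative-only, and 52.5% (50.0 to 55.1) of the distant ones.

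**Figure D3:**
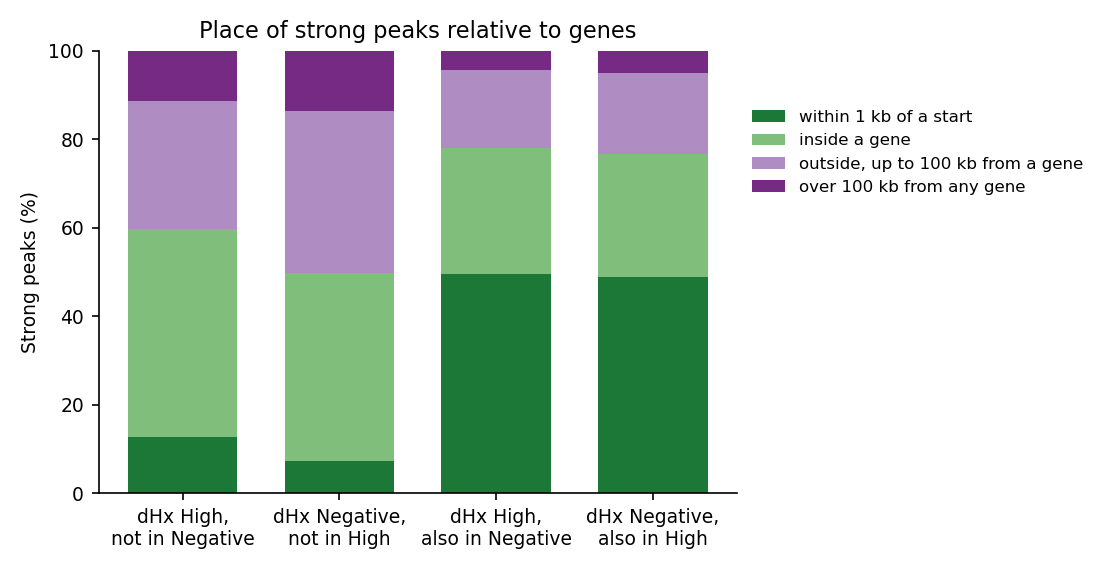
Place of strong peaks relative to genes (% of peaks, vertical axis) for peaks in 1 dHx list alone (left pair) and shared (right pair); the colours stand for peaks within 1 kb of a start, inside a gene, outside up to 100 kb away and farther. Near starts lay 12.7% of dHx High-only and 7.23% of dHx Negative-only peaks, against 49.5% and 48.8% of the shared ones.

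Shared peaks were wider. The median width of strong peaks was 417.5 bp for High-only and 474.5 bp for Negative-only peaks, against 686 bp for shared peaks in dHx High and 651 bp for shared peaks in dHx Negative. Wide domains of 3 kb or more were 34 peaks in dHx High, of which 1 was High-only, and 219 peaks in dHx Negative, of which 51 were Negative-only (23.3%, 17.9 to 29.5). Narrow peaks under 300 bp made up 969 of the strong High-only peaks (21.1%) and 1198 of the strong Negative-only peaks (20.6%). Strong peaks of this width, shared ones included, numbered 1896 in dHx High and 2059 in dHx Negative. Narrow strong peaks were thus found in 1 list alone more often than strong peaks of any width. For any width the shares were 22.9% in dHx High and 29.1% in dHx Negative. By chromosome, the High-only share of strong peaks ran between 18.7% on chromosome 7 and 28.6% on chromosome 18, and the Negative-only share between 24.2% on chromosome 7 and 36.2% on chromosome 14. At the score of the 20000th peak, 3320 dHx High and 2137 dHx Negative peaks tied. Those counted as strong were taken in the order of chromosome names. The part of this rule in the shares by chromosome was not tested.

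The strongest High-only regions were mostly open in the lists with tagRFP signal of both genotypes. Of the 15 with the highest score, 13 were also in dHx Middle, 11 in WT High, 11 in WT Middle and 2 in WT Negative. The first lay inside Pde4b, a cAMP phosphodiesterase (chr4:102091289-102092139, score 255), and was in all 4 lists with tagRFP. The second (chr8:84289840-84290564, score 181) lay 19.4 kb from Ccdc130 and had the same pattern. Others of that pattern lay inside Tcf7l1, a repressor of Wnt target genes (chr6:72641364-72642174, score 99.2), and inside Cald1, which encodes caldesmon (chr6:34725898-34726787, score 70.6). A region inside Gcnt2, a glycosyltransferase (chr13:40898091-40898597, score 68.6), was in dHx High and WT High and in no other list. A region of 282 bp inside Pepd, a dipeptidase (chr7:34958172-34958453, score 125), was in dHx High alone. Those inside Calm2, a calmodulin gene, and Slc27a1, a fatty acid transporter, were in WT Negative and not in WT High.

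Among the 15 highest-scoring Negative-only regions, 14 were also in WT Negative, 14 in WT Middle, 13 in dHx Middle and 9 in WT High. The 9 were open in every list except dHx High. The highest score belonged to a region of 238 bp inside Flt1, a VEGF receptor (chr5:147611434-147611671, score 1734), which was in WT Middle and WT Negative and in neither High list. The other dHx Negative peaks assigned to Flt1 scored 11.2 or less. Next by score came regions of 259 bp inside Abca17 (score 950) and 242 bp near Adgre5 (score 945), in every list except dHx High. Whether such narrow regions with extreme scores are open chromatin or an artefact of read mapping was not tested. A region inside Ptch1, the hedgehog receptor and a target of the pathway (chr13:63520974-63521539, score 153), was in dHx Middle, WT Middle and WT Negative and in neither High list. Regions inside Ublcp1, a phosphatase of the proteasome (chr11:44462436-44462907, score 162), and Lrrc29 (chr8:105320255-105321335, score 157) had that pattern as well. Of the 15, 4 were narrower than 300 bp, and 1 of these, over 100 kb from any gene on chromosome 3, was in dHx Negative alone.

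Genes were then taken in lists by tissue, a peak counting for the closest protein-coding gene up to 100 kb away, or for each gene at equal distance. The 10 lists hold 253 entries for 239 genes, so some genes stand in more than 1 list. Over all genes 4122 of 20171 strong dHx High peak assignments (20.4%) were High-only, and 5097 of 19722 strong dHx Negative assignments (25.8%) were Negative-only. Of 13972 genes with a strong peak, 17.3% had more strong High-only than Negative-only peaks and 20.9% had more strong Negative-only than High-only peaks. The lists hold loci and were not used to name cell types. They were chosen with earlier results of these data known, so the order of the lists is a description and no independent support.

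Endoderm transcription factors stood above the first of these shares. In this list 22 of 59 strong dHx High peaks (37.3%, 25 to 50.9) were High-only and 10 of 37 strong dHx Negative peaks (27.0%, 13.8 to 44.1) were Negative-only. Of 17 genes with a strong peak, 6 had more High-only and 3 more Negative-only peaks. Foxa1 led with 5 of 6 strong dHx High peaks High-only and no strong dHx Negative peak. Its peaks in all numbered 8, 6 and 2 in the High, Middle and Negative lists of dHx, and 6 in WT High, 5 in WT Middle and 1 in WT Negative. The highest-scoring High-only peak of Foxa1 (chr12:57527097-57527573, score 21.7) was 13.1 kb from the gene body and occurred in dHx Middle and WT Middle. A pair of them lay at its starts: chr12:57546737-57547059 (score 11.3), in all 4 lists with tagRFP, and chr12:57545577-57546290 (score 6.02), in those and in WT Negative. The second of these had the score of the 20000th peak, and 4 strong High-only peaks were left without such ties.

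At Foxa1 each of the 4 lists with tagRFP held more peaks than either Negative list. Foxa2 itself had 3 of 8 strong dHx High peaks High-only and none of 3 strong dHx Negative peaks Negative-only. Over whole lists Foxa2 had 8 High-only of 16 peaks in dHx High and 7 Negative-only of 15 in dHx Negative. Its highest-scoring High-only peak (chr2:148036797-148037379, score 17.1) lay 5.50 kb from the gene and was present in every list but dHx Negative. On the Negative side, Cdx2, a homeobox factor of hindgut and trophoblast, had none of 3 strong dHx High peaks High-only and 2 of 5 strong dHx Negative peaks Negative-only. Tead1, a partner of the Hippo pathway, had 2 of 8 in dHx High and 3 of 8 in dHx Negative. Gsc, of the anterior streak, had 1 of 2 in dHx High and 1 of 1 in dHx Negative, and 0 strong peaks in 1 list alone on either side without peaks that tie at the 20000th score. Of the 22 strong High-only peaks of the list, 14 were in WT High and not in WT Negative (63.6%, against 55.3% of the strong High-only peaks near any gene), 3 in both and 5 in neither.

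**Figure D4:**
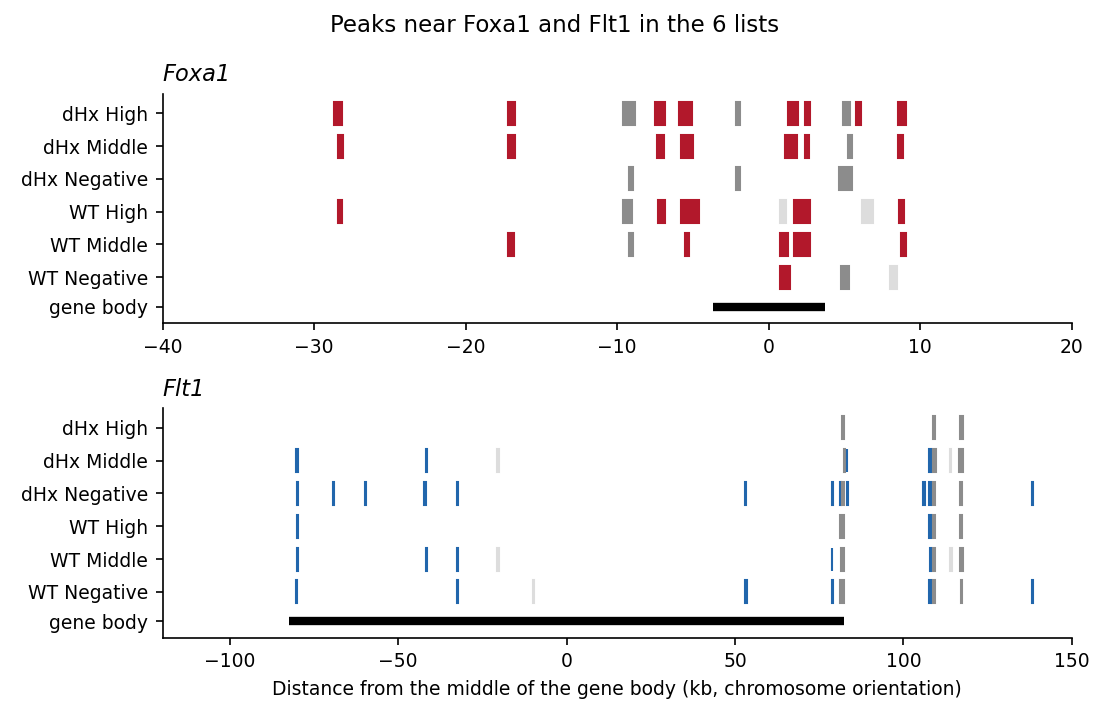
Peaks near Foxa1 and Flt1 in the 6 lists (rows), by distance from the middle of the gene body (horizontal axis, kb, to scale); red marks peaks that overlap a dHx High and no dHx Negative peak, blue the reverse, grey both and pale grey neither, and the black bar is the gene body. Some peaks in view belong to neighbouring genes. Foxa1 has 8 assigned peaks in dHx High and 2 in dHx Negative, and Flt1 has 3 in dHx High and 15 in dHx Negative.

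Endoderm surface and epithelial genes had, of the 10 lists, the largest excess of the High-only over the Negative-only share. Here 28 of 79 strong dHx High peaks (35.4%, 25 to 47) were High-only and 6 of 39 strong dHx Negative peaks (15.4%, 5.86 to 30.5) were Negative-only. Of 28 genes with a strong peak, 15 had more High-only and 1 more Negative-only peaks. Grhl2, a factor of epithelial genes, had 3 of 7 strong dHx High peaks High-only and none of 2 strong dHx Negative peaks Negative-only. Magi1, a scaffold of cell junctions, had 3 of 6 in dHx High and 1 of 5 in dHx Negative, and the related Magi2 had 2 of 6 in dHx High and none of 4 in dHx Negative. Over whole lists Magi2 had 7 High-only of 13 peaks in dHx High and 8 Negative-only of 14 in dHx Negative. Cdh1, which encodes E-cadherin, had 2 of 3 in dHx High and none of 1 in dHx Negative. One of these Cdh1 peaks (chr8:106602942-106603825, score 9.88) overlapped an end of the gene and was in every list but dHx Negative. Cxcr4, a chemokine receptor, had 2 of 4 in dHx High and 1 of 3 in dHx Negative, and Emb, a membrane glycoprotein, 1 of 5 in both. The 1 gene with more Negative-only peaks was Epcam, an epithelial adhesion molecule, with none of 1 in dHx High and 1 of 2 in dHx Negative; it was named after its values were seen. Of the 28 High-only peaks, 15 were in WT High and not in WT Negative (53.6%, near the 55.3% over all genes), none the reverse, 5 in both and 8 in neither.

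Node and notochord genes had 29 of 76 strong dHx High peaks High-only (38.2%, 27.2 to 50) and 16 of 58 strong dHx Negative peaks Negative-only (27.6%, 16.7 to 40.9). Of 27 genes with a strong peak, 16 had more High-only and 5 more Negative-only peaks. Over whole lists, weaker peaks included, the excess of High-side genes was 2 in place of 11. Sox9, a factor of the notochord, had 3 of 6 strong dHx High peaks High-only and none of 3 strong dHx Negative peaks Negative-only. Over whole lists Sox9 had 5 High-only of 9 peaks in dHx High and 8 Negative-only of 12 in dHx Negative, so the side with more such peaks was not the same as for strong peaks. Dnah5 and Dnah11, dynein heavy chains of motile cilia, were mixed. Dnah5 had 3 of 4 in dHx High and 2 of 2 in dHx Negative, and Dnah11 had 2 of 4 in dHx High and 3 of 4 in dHx Negative. Lmx1a, a LIM homeobox factor, had 2 of 3 in dHx High and no strong peak in dHx Negative, but over whole lists 5 of 7 in dHx High and 6 of 8 in dHx Negative. Shh, the hedgehog ligand, tied with it at 2 of 2 in dHx High and no strong peak in dHx Negative, and was named after its values were seen. Downstream of the ligand, Gli2, a transcriptional effector of the pathway, had 2 of 6 in dHx High and 2 of 5 in dHx Negative (over whole lists, 5 of 12 in dHx High and 15 of 22 in dHx Negative). The receptor Ptch1 had none of 3 in dHx High and 4 of 7 in dHx Negative (over whole lists, 5 of 9 and 6 of 10). Of the other pathway members listed, named after their values were seen, Gli3 had 2 of 10 in dHx High and none of 7 in dHx Negative, and Gli1 and Smo had no strong peak in 1 list alone. Nog, a secreted BMP antagonist, had none of 1 in dHx High and 3 of 4 in dHx Negative. Of the 29 strong High-only peaks, 19 were in WT High and not in WT Negative (65.5%, against 55.3% over all genes), 3 the reverse, 3 in both and 4 in neither.

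Few strong peaks lay near visceral endoderm genes: 3 of 12 in dHx High (25%, 5.49 to 57.2) were High-only and 7 of 14 in dHx Negative (50%, 23 to 77) were Negative-only. Ihh, a hedgehog ligand, Alb, which encodes albumin, and Slc2a2, a glucose transporter, had 1 strong High-only peak each. Cubn, an endocytic receptor, had none of 2 in dHx High and 2 of 3 in dHx Negative, and its partner Lrp2 none of 1 in dHx High and 2 of 2 in dHx Negative. Of the 7 Negative-only peaks 5 were in both WT High and WT Negative. Primitive streak and nascent mesoderm genes had 5 of 32 High-only (15.6%, 5.28 to 32.8) and 10 of 31 Negative-only (32.3%, 16.7 to 51.4). Nodal, a ligand of the TGF-beta family, had 1 of 2 in dHx High, which was a tie at the 20000th score, and none of 1 in dHx Negative. Axin2, a feedback inhibitor of Wnt signalling, had 1 of 5 in dHx High and 2 of 6 in dHx Negative. Cdx1, a posterior homeobox factor, had no peak in dHx High and 2 of 2 in dHx Negative. Without ties Cdx1 and Cubn each had 1 strong Negative-only peak.

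Lateral and cardiac mesoderm genes stood on the Negative side. None of 23 genes with a strong peak had more High-only peaks and 11 had more Negative-only peaks. In dHx High 9 of 46 strong peaks (19.6%, 9.36 to 33.9) were High-only, and in dHx Negative 22 of 58 (37.9%, 25.5 to 51.6) were Negative-only. Meis2, a homeobox factor, had 1 of 9 in dHx High and 3 of 11 in dHx Negative, and Msx1, a homeobox factor of BMP-responsive mesoderm, 1 of 4 in dHx High and 2 of 5 in dHx Negative. Bmp2, a BMP ligand, had 2 of 5 in both. Blood and endothelium genes had 6 of 25 High-only (24%, 9.36 to 45.1) and 18 of 36 Negative-only (50%, 32.9 to 67.1); 3 of 21 genes had more High-only and 11 more Negative-only peaks. Flt1 had none of 2 in dHx High and 4 of 4 in dHx Negative, and Flt4 1 of 1 in dHx High and 3 of 3 in dHx Negative. The 4 of Flt1 include the narrow region of 238 bp with score 1734. Runx1, of blood formation, had 1 of 1 in dHx High and 2 of 4 in dHx Negative. Of the 22 lateral and cardiac Negative-only peaks, 8 were in WT Negative and not in WT High (36.4%, near the 29.9% over all genes), 8 in both, 6 in neither and none in WT High and not in WT Negative. Of the 18 of blood and endothelium, 8 were in WT Negative and not in WT High (44.4%), 2 the reverse, 4 in both and 4 in neither.

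Epiblast and neural plate genes were near the shares over all genes, with 7 of 33 High-only (21.2%, 8.98 to 38.9) and 9 of 36 Negative-only (25%, 12.1 to 42.2). Pax2, a paired box factor, had 2 of 2 in dHx High and no strong peak in dHx Negative, although over whole lists it had 4 peaks in dHx High and 11 in dHx Negative. Pou3f1, of the epiblast and neural plate, had none of 2 in dHx High and 1 of 3 in dHx Negative. Extraembryonic ectoderm and trophoblast genes had 7 of 33 High-only (21.2%, 8.98 to 38.9) and 10 of 37 Negative-only (27.0%, 13.8 to 44.1). Esrrb, an orphan nuclear receptor, had 2 of 2 in dHx High and 1 of 1 in dHx Negative, and Tfap2c, which encodes AP-2 gamma, no strong peak in dHx High and 2 of 3 in dHx Negative. Of the 10 Negative-only peaks of this list, 8 were in WT Negative and none in WT High, against 29.9% in WT Negative and not in WT High over all genes. Constitutive promoters had low shares on both sides, with 4 of 38 High-only (10.5%, 2.94 to 24.8) and 4 of 41 Negative-only (9.76%, 2.72 to 23.1).

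**Figure D5:**
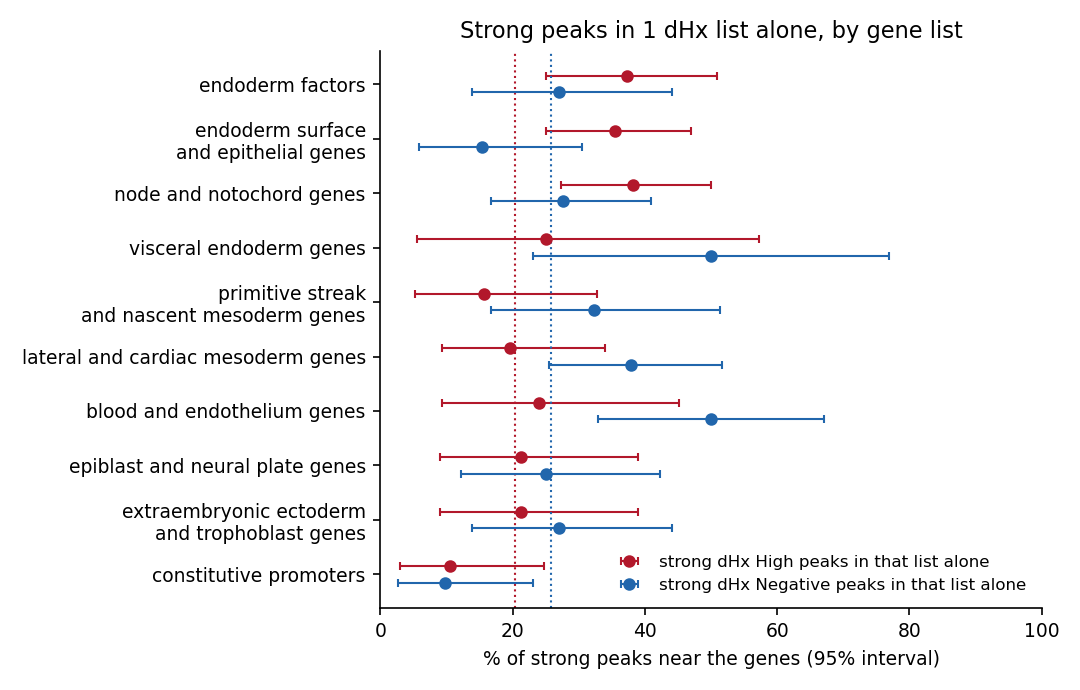
Share of the strong peaks near the genes of each list that lay in dHx High alone (red) or in dHx Negative alone (blue), in % with Clopper-Pearson 95% intervals; the dotted lines are the shares over all genes, 20.4% for dHx High and 25.8% for dHx Negative. Red lies to the right of blue for endoderm factors, endoderm surface and epithelial genes and node and notochord genes, and to its left for the remaining lists other than constitutive promoters.

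Genome-wide, outside the 1-Mb bins densest in peaks, 7 genes had the largest excess, of 5 strong High-only over Negative-only peaks: Agap1, Dock4, Dpp6, Foxa1, Pawr, Slc39a11 and Srgap1. Foxa1 was the shortest of them at 7.402 kb, and their median length was 401 kb, against 24.98 kb for all genes with a strong peak. The set depends on ties at the 20000th score: without them the strong High-only peaks were 3 for Pawr, 4 for Slc39a11 and 4 for Foxa1, while Agap1 stayed at 6 and Dock4, Dpp6 and Srgap1 at 5. Dock4, an activator of Rac and Rap signalling, had 5 of 7 in dHx High and none of 1 in dHx Negative. Srgap1 had 5 of 6 in dHx High and none of 2 in dHx Negative, and Pawr, a pro-apoptotic factor, 5 of 6 in dHx High and none of 1 in dHx Negative. Over whole lists, weaker peaks included, the excess of High-only peaks was not the same for the 7 genes. It was -1 for Dpp6, 0 for Srgap1, 1 for Slc39a11, 5 for Dock4 and Pawr, 6 for Foxa1 and 10 for Agap1. At the other end, Sdk2, an adhesion molecule of the immunoglobulin family, had none of 6 in dHx High and 9 of 14 in dHx Negative, and Sfi1, a centrosome protein, 1 of 7 in dHx High and 10 of 22 in dHx Negative. Sfi1 has near-identical copies in the genome, so its count is uncertain. Bmpr1b, a BMP receptor, had none of 2 in dHx High and 5 of 7 in dHx Negative. Bmpr1b had 2, 7 and 8 peaks in the High, Middle and Negative lists of dHx, and 10 in WT High, 5 in WT Middle and 7 in WT Negative. The low count for Bmpr1b was thus in dHx High and not in WT High.

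Promoters were mostly open in both dHx lists. Of 16456 genes with a start in the promoter table, 8992 (54.6%) had a peak within 1 kb of a start in both, 862 (5.24%) in dHx High alone, 903 (5.49%) in dHx Negative alone and 5699 in neither. Peaks of the whole lists were counted here, weaker ones included. The peak was strong for 356 of the 862 genes and for 213 of the 903. Promoters open in dHx High alone were open in WT High in 53.9% of cases and in WT Negative in 36.8%. Those open in dHx Negative alone were open in WT High in 46.4% and in WT Negative in 50.8%. The promoters named here follow from their state in these lists and were chosen after their values were seen. Among those named, the dHx High peak was strong only at Foxa1, Krt18, Pyy, Nodal, Nkx2-5 and Gcm1. The dHx Negative peak was strong only at Smarcd3, Etv2, Utf1, Zic1, Esrrb and Tbp. For endoderm factors 1 of 11 was open in dHx High alone (Foxa1) and 1 in dHx Negative alone (Gsc). For endoderm surface and epithelial genes 4 of 24 were open in dHx High alone (Krt18, Krt7, Pyy and Sfrp5) and 1 in dHx Negative alone (Tjp1). For node and notochord genes 1 of 21 was open in dHx High alone (Nodal) and 2 in dHx Negative alone (Dnah5 and Noto), and for visceral endoderm genes 2 of 16 in dHx High alone (Amn and Ihh) and 1 in dHx Negative alone (Apoc2). For lateral and cardiac mesoderm genes 3 of 21 were open in dHx High alone (Nkx2-5, Pdgfra and Prrx2), and 7 in dHx Negative alone (Hand2, Mef2c, Prrx1, Smarcd3, Tbx1, Tcf21 and Twist1). Blood and endothelium genes differed: none of 16 was open in dHx High alone, and Egfl7, Etv2, Tal1 and Tek in dHx Negative alone. Of 23 epiblast and neural plate genes, Hesx1 was open in dHx High alone and En1, Hoxb1, Pax6, Pou5f1, Sox1, Utf1 and Zic1 in dHx Negative alone. Primitive streak and nascent mesoderm genes had 1 of 22 open in dHx High alone (Nodal) and none in dHx Negative alone. Extraembryonic ectoderm and trophoblast genes had 2 of 13 in dHx High alone (Ascl2 and Gcm1) and 1 in dHx Negative alone (Esrrb). Of 17 constitutive promoters, none was open in dHx High alone and 1 in dHx Negative alone (Tbp).

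The 300-base windows around starts (250 before and 50 after) differed in composition. GC content averaged 61.5% ± 10.98 in 1626 windows that met a peak in dHx High alone and 56.6% ± 9.09 in 1483 that met a peak in dHx Negative alone (SD over windows). Windows that met both averaged 62.7% and those that met neither 47.6%. The median number of CpG was 19.5 for dHx High alone, 10 for dHx Negative alone and 22 for both. A forkhead match, TGTTTAC or TGTTTGC on either strand, was found in 9.04% (7.69 to 10.5) of dHx High windows, 7.08% (5.83 to 8.51) of dHx Negative windows, 5.48% (5.06 to 5.93) of those open in both and 8.55% of all 31365 windows. TGTTTAC alone, the match in Foxa1, was in 3.26% for dHx High, 3.10% for dHx Negative and 3.71% of all windows. The GATA match AGATAA was in 6.03% (4.92 to 7.30) of dHx High windows, 9.51% (8.06 to 11.1) of dHx Negative windows and 11.2% of all. TEAD matches were in 14.7% of dHx High windows, 15.8% of dHx Negative windows and 14.6% of all. SOX matches were in 8.0% of dHx High windows, 8.90% of dHx Negative windows and 12.2% of all. A match is a description of letters, not a bound site. Windows of the 2 classes differ in GC content, and its part in these shares was not tested.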

How the data were processed

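Each of the 6 groups was deposited by the authors as 1 peak list on mm10. The submitters' processing notes list STAR (2.5.2a) and MACS2, with settings not given in the sources used here. Names of peaks hold the word Pooled, so the 2 samples of a group were read as pooled. The authors deposited a score per peak in a column without a name, whose values have the steps of a p-value or q-value written as −log10. Read depth was not given in the sources used here, so the precision of a single peak is unknown.

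Lines with equal coordinates were merged with the highest score kept, on autosomes. Overlap, ranking (ties by chromosome and start) and assignment to 20661 protein-coding genes (RefSeq GRCm38.p6; nearest gene body within 100 kb) were computed with Python 3.11.15, pandas 2.3.3 and scipy 1.17.1, and checked on simulated lists. Starts came from a RefSeq promoter table that holds 16456 of these genes. It gives 174 of the listed genes a start. The relative background was fitted to the 40 lowest distinct scores. Motif counts were run in promoter windows, since no genome sequence was used here. Members and 10 gene lists (253 entries) were chosen with earlier results of these data known. Named genes were Foxa2, up to 4 per list with the most strong High-only and up to 3 with the most strong Negative-only peaks, the 10 largest and 10 smallest net numbers genome-wide, and the 15 highest-scoring regions per side; which of these to print was decided with their values known, and some are not reported here. Shares carry Clopper-Pearson 95% intervals, and no test was possible.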

Additional observations from a re-analysis of the deposited data

How the results depend on the processing

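No paired analysis was possible because each list pools the 2 samples of its group, and for the same reason no replicate could be left out. All shares below give dHx High first and dHx Negative second. Whole lists: the shares in 1 list alone were 41.2% and 55.6% when at least 50% of the shorter peak had to be covered, 36.9% and 51.3% when peaks up to 500 bp away counted as shared, 35.4% and 48.7% without merging, 35.0% and 50.0% with a score of at least 5, and 39.8% and 51.1% without the densest 1% of 1-Mb bins. Shortening the longer list by score to the length of the shorter gave 45.3% and 45.1%. With X and Y the dHx Negative share was 54.4%. Without peaks under 300 bp, chosen after seeing the data, it was 50.1%. Strong peaks: the shares were 24.0% and 29.96% with 50% overlap, 22.2% and 28.1% with 500 bp allowed, 22.1% and 28.3% with X and Y, and 17.9% and 23.6% without merging. Without the densest bins the dHx High share was 24.4%. Taking 10000 peaks gave 11.1% and 16.9%, and 30000 peaks 33.2% and 39.7%. Further settings were chosen after seeing the data. Without narrow peaks the shares were 29.1% and 33.5%, with all ties at the 20000th score kept 25.6% and 29.99%, with those ties left out 22.0% and 27.3%, and with lookup in the 20000 strongest of the other list 41.8% and 41.6%. In every setting except the 2 that made the lists equally long, the dHx Negative share was the higher one. For the gene lists, the excess of High-side over Negative-side genes moved in 19 of 60 values and changed sign in 1 more: for extraembryonic ectoderm and trophoblast genes it was 1 with all ties kept and -1 as reported. Over whole lists, against strong peaks, it was -12 against -2 for streak, -10 against -3 for epiblast and neural plate, -10 against -1 for extraembryonic, -14 against -8 for blood and endothelium, -7 against 0 for constitutive, 0 against -2 for visceral endoderm and 2 against 11 for node and notochord genes. For lateral and cardiac genes it was -13 against -11, with 6 genes on the High side against 0. The cause was not tested. Read depth is unknown, so what it limits was not tested.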
